A study of Mus musculus with 18 samples.

Results

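Proximal tubule cells kept for 14 days in primary culture were compared with freshly isolated proximal tubules (day 0), with 3 libraries a day. These 6 libraries are those whose titles carry day 14 or day 0 with the replicate letters A to C, of 18 libraries in all. The other 12 come from days 1, 2, 4 and 7 of culture and serve here to say when a gene was lost or appeared. They also enter the estimate of spread behind the p-values. Both groups came from kidneys of female wild-type C57BL/6J mice aged 6 weeks and had no added treatment. The day 14 cells had grown on tissue culture plastic from plated tubules, without passage. The day 0 libraries hold tubules separated from collagenase-digested kidney on a Percoll density gradient, an enrichment by density and not a sort of single cells. The labels call A to C biological replicates without naming the mice or dishes behind them. The p-values thus measure the spread between libraries of the same day, pooled over all 18, which may be technical. Polyadenylated RNA was sequenced, and in such bulk samples fewer cells of a type and less RNA per cell cannot be told apart.

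The proximal tubule takes back most of what the glomerulus filters: sodium, phosphate, glucose, amino acids and, through the receptors megalin and cubilin, small proteins. Its brush border carries the transporters and peptidases, its energy comes mainly from the oxidation of fatty acids, and it makes glucose and clears drugs and organic ions from the blood. Tubule cells that are injured or placed in culture are known to lose part of these functions while they spread and divide.

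The libraries held 25302497 to 28082080 estimated counts on day 14 and 25085362 to 37579097 on day 0. Levels of a single gene are mostly given as CPM, counts scaled by library size and by the trimmed mean of M-values (TMM). For some genes, and for sums over lists, TPM is given for both days. Levels of different genes are set beside each other only as TPM, which accounts for transcript length. Means are given ± SD of the 3 libraries, and the error of a log2 fold change (day 14 over day 0) is its SE. Day 0 RNA was more concentrated in a few genes: the 10 highest made up 5.29 to 5.84% of TPM on day 14 and 16.7 to 17.5% on day 0. Mitochondrially encoded genes took 0.895 to 1.01% of counts on day 14 and 3.93 to 5.73% on day 0. Of 18754 genes tested with edgeR's quasi-likelihood test on all 18 libraries, 7007 were higher on day 14 (37.4%) and 6026 were lower (32.1%), at a Benjamini-Hochberg adjusted p under 0.05. The median log2 fold change over all genes tested was 0.16. The share of calls that were higher was 53.8% here, but 71.9% when counts were scaled by library size alone and 74.3 to 79.4% in limma fits on log2 TPM. With DESeq2's Wald test it was 48.6% (6598 higher and 6991 lower), with DESeq2 size factors in edgeR 49.6%, with the libraries of the 2 days alone 49.8% (6713 and 6772) and against a fold of 2 46.4%, so in these settings lower calls outnumbered higher ones. Library sizes alone and the limma fits moved the median of all genes by 0.56 and by 0.77 to 0.82 on the log2 scale, and small changes are to be read against that shift.

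Day 14 was marked by 4 genes that were near 0 in fresh tubules. Lcn2, which encodes neutrophil gelatinase-associated lipocalin, a protein that binds iron-carrying siderophores and is known as a kidney injury marker, had 2194, 2178 and 2203 CPM on day 14, against 1.28, 0.864 and 3.64 CPM on day 0. It lies at chr2:32384633-32388252 on GRCm38 and rose 1136-fold (log2 fold change 10.21 ± 0.44, edgeR adjusted p = 1.37e-11). By TPM it ranked 4 on day 14 among genes that were neither mitochondrially encoded nor named Gm with a number. It had 5649 TPM on day 14 against 2.8 TPM on day 0. The day 14 libraries were close to each other, and every culture library lay above the 3 of day 0.

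Msln, at chr17:25748613-25754378, encodes mesothelin, a glycolipid-anchored protein of the cell surface. It had 419, 493 and 465 CPM on day 14, against 0.0473, 0.036 and 0.411 CPM on day 0 (log2 fold change 11.56 ± 0.38, edgeR adjusted p = 1.03e-12). Igfbp2, at chr1:72824503-72852474, encodes a secreted protein that binds insulin-like growth factors. It had 701, 489 and 715 CPM on day 14, against 0.0473, 0.144 and 0.616 CPM on day 0 (log2 fold change 11.28 ± 0.88, edgeR adjusted p = 1.04e-08). Wnt7a, at chr6:91363981-91411363, encodes a secreted Wnt ligand and had 406, 415 and 459 CPM on day 14, against 0.0947, 0 and 0 CPM on day 0. Its day 14 libraries held 38808 counts together and its day 0 libraries 2, a ratio of 14589 (95% counting interval 4038 to 120467). In all 4 genes the libraries of the 2 days were far apart, and for Lcn2, Msln and Igfbp2 replicate C was the highest of day 0.

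The 4 genes did not appear together. On days 0, 1, 2, 4, 7 and 14, Wnt7a averaged 0.0316, 32.9, 144, 240.1, 310.4 and 427 CPM. Msln averaged 0.165, 1.32, 18.5, 315, 389 and 459 CPM over the same days. Lcn2 averaged 1.93, 29.8, 32.7, 146, 781 and 2192 CPM. Wnt7a was thus above 10 CPM by day 1 and Msln by day 2, while Lcn2 gained most of its level after day 4. Igfbp2 came last, with 0.269, 0.119, 0.151, 1.39, 50.5 and 635 CPM. On day 7 its libraries A, B and C had 72.4, 71.5 and 7.47 CPM, so replicate C lay far below the others. All 4 genes were higher on day 14 than on day 4, in a contrast that called 28.6% of genes tested higher and 23.3% lower. The log2 fold changes over day 4 were 8.82 for Igfbp2, 3.91 for Lcn2, 0.83 for Wnt7a and 0.54 for Msln.

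**Figure D1:**
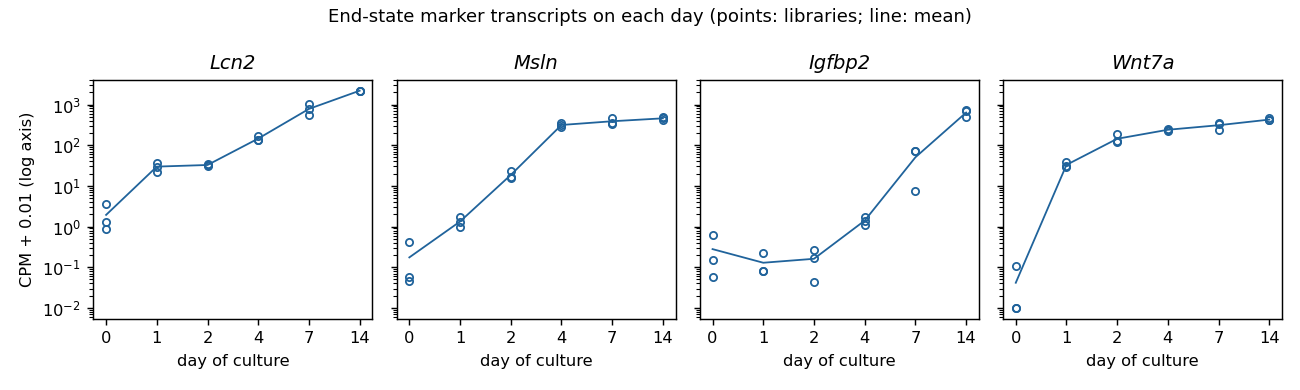
CPM (plus 0.01, log scale) of Lcn2, Msln, Igfbp2 and Wnt7a on each sampled day, with 1 point per library and a line through the day means. Wnt7a is at 32.9 CPM on day 1 and Igfbp2 at 1.39 CPM on day 4, and each gene has its highest mean on day 14.

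To describe what 2 weeks of culture kept, lost and gained, genes were placed in classes by their levels alone. A gene was called shared where every library of both days had at least 100 TPM, and 881 genes were. These made up 46.2% ± 0.89 of all TPM on day 14 and 59.2% ± 1.01 on day 0. A high level in both states did not mean an equal one: 200 of the 881 were called higher and 515 lower. Among all genes tested 37.4% were higher and 32.1% lower. For 445 of the 881 the 95% interval of the fold change lay within 2-fold. These held genes averaged 21.4% ± 0.58 of TPM on day 14 and 12.1% ± 0.32 on day 0. The limit of 100 TPM fell between Prr13, whose lowest library had 100.38 TPM, and Timm10b, with 99.89 TPM.

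The held gene with the highest day 14 level was Spp1, which encodes osteopontin, a secreted phosphoprotein of the tubule. Spp1 had 7259, 9177 and 7326 TPM on day 14, against 3808, 4286 and 4612 TPM on day 0. By CPM, the scale of the test, it averaged 5477 ± 847 CPM on day 14 against 5206 ± 569 CPM on day 0 (log2 fold change 0.07, 95% interval -0.36 to 0.51, edgeR adjusted p = 0.763). The libraries of the 2 days overlapped on that scale, and Spp1 was called higher with library sizes alone and in the TPM fits. In between, Spp1 was at 3112, 2330.4, 7608 and 12598 CPM on days 1, 2, 4 and 7.

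Other held genes went either way within the 2-fold limit. Eef1a1, the elongation factor that brings aminoacyl-tRNA to the ribosome, rose, with 2626 CPM on day 14 against 1671 CPM on day 0. Ppia, the cyclophilin A gene, fell, with 1449 CPM on day 14 against 1784 CPM on day 0, lost the call without replicate A or C of day 14, and was called higher with library sizes alone and in the TPM fits. Prdx1, a peroxidase, fell, with 1342 CPM on day 14 against 2201 CPM on day 0, and its value was above 0 in the TPM fits without passing there. The glycolytic genes Aldoa and Eno1 did not pass the test here but did so in TPM fits, with 1501 CPM on day 14 against 1533 CPM on day 0 for Aldoa and 2161 CPM on day 14 against 1955 CPM on day 0 for Eno1. Of the 445 held genes, 55 carry names of cytoplasmic ribosomal proteins.

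The ferritin genes stayed among the highest in both states. Ftl1, the ferritin light chain, had 9911, 10274 and 10281 TPM on day 14, against 9300.3, 10716 and 12168 TPM on day 0. With mitochondrially encoded and Gm-numbered genes left out, it was the highest gene on day 14. On the CPM scale it averaged 4255 ± 128 CPM on day 14 against 8037 ± 1177 CPM on day 0 (log2 fold change -0.92 ± 0.14, edgeR adjusted p = 2.1e-05), a fall that did not pass in the TPM fits. Fth1, the heavy chain, fell too, with 2266 ± 236 CPM on day 14 against 7299 ± 151 CPM on day 0. Ctsd, which encodes the lysosomal protease cathepsin D, rose, with 4823 ± 49.3 CPM on day 14 against 1210.4 ± 79.6 CPM on day 0 (log2 fold change 1.99 ± 0.18, edgeR adjusted p = 4.97e-08).

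General genes of tubule epithelium went both ways. Of 15 listed, 8 rose and 6 fell, and the median log2 fold change was 0.97. Pax8, a transcription factor of the nephron lineage, rose, with 332, 319 and 297 CPM on day 14, against 125, 109 and 97.8 CPM on day 0. Cdh1, which encodes the epithelial adhesion protein E-cadherin, rose, with 948 ± 53.5 CPM on day 14 against 296 ± 24.5 CPM on day 0. Krt18, a keratin of simple epithelium, rose 57.6-fold, with 1284 ± 24.9 CPM on day 14 against 22.3 ± 5.28 CPM on day 0. Its partner keratin Krt8 and the adhesion gene Epcam rose as well.

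Cdh16, the kidney-specific cadherin, kept a high level and fell, with 702 ± 10.9 CPM on day 14 against 1502 ± 62.1 CPM on day 0 (log2 fold change -1.10 ± 0.19, edgeR adjusted p = 7.94e-05), but did not pass in the TPM fits. Ezr, which encodes the microvillus linker ezrin, had 754, 739.7 and 791 CPM on day 14, against 843, 812 and 797 CPM on day 0. The ezrin libraries of both days lay close together without overlapping, and the gene did not pass the test (log2 fold change -0.10, 95% interval -0.33 to 0.13, edgeR adjusted p = 0.411), though it was called higher with library sizes alone and in the TPM fits. Fxyd2, which encodes a regulatory subunit of the sodium pump, fell, with 120.2 ± 26.3 CPM on day 14 against 2384 ± 58.5 CPM on day 0.

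**Figure D2:**
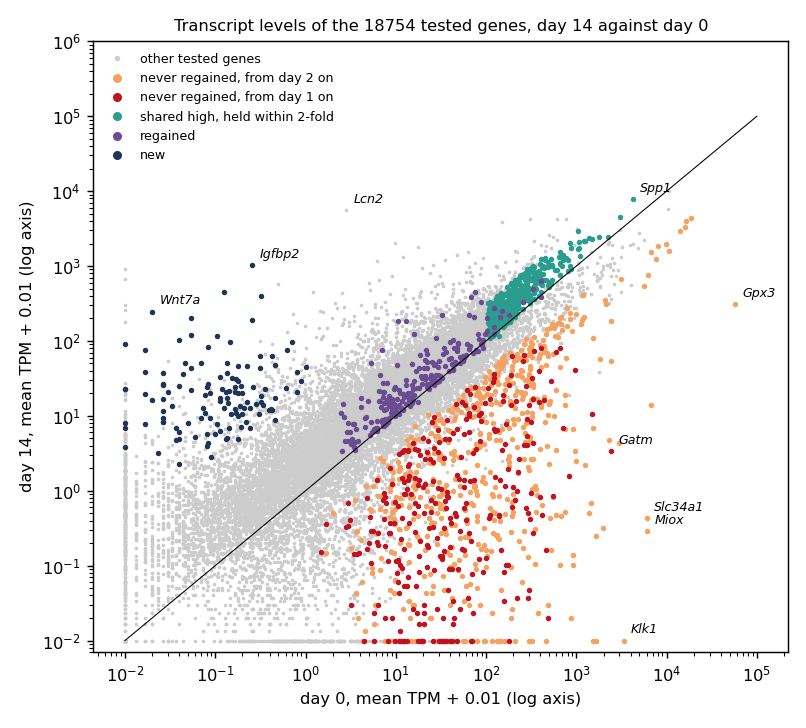
Mean TPM (plus 0.01) of each tested gene on day 14 (vertical axis) against day 0 (horizontal axis), both on a log scale, with genes coloured by the class they were placed in by level. The 445 held genes, chosen on the CPM scale, lie near the diagonal of equal TPM and mostly above it, the 849 genes never regained from day 2 on lie below it and the 121 new genes at the upper left, and a gene in 2 classes has the colour drawn last.

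The transport genes that define the proximal tubule did not come back. All 36 listed transporters fell, and 29 of them were under 1% of their day 0 mean on day 14. The median log2 fold change was -9.26, or -9.16 with the 3 members at 0 counts on day 14 set at a floor of 3 counts over the 3 libraries. Their summed level was 133 to 149.9 TPM on day 14 and 13338 to 14502 TPM on day 0. The day 14 libraries carry the label proximal tubule, and these markers go against it there.

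Slc34a1, the main sodium-phosphate cotransporter of this segment, had 0.87, 0.356 and 0.293 CPM on day 14, against 13738, 14671 and 12849 CPM on day 0 (log2 fold change -14.69 ± 0.54, edgeR adjusted p = 2.72e-12). Slc5a2, which encodes the sodium-glucose cotransporter SGLT2, averaged 0.0849 ± 0.088 CPM on day 14 against 1827 ± 125 CPM on day 0. Slc22a8, the organic anion transporter OAT3, had no count in any day 14 library, against 1563, 1650.5 and 1557 CPM on day 0, which makes it at least 48404-fold lower. In each of the 36 genes every day 14 library lay below every day 0 library, which was so for 35.5% of all genes tested. Least reduced were the efflux pump Abcg2, with 87.7 CPM on day 14 against 932 CPM on day 0, and the sodium-bicarbonate cotransporter Slc4a4, with 107 CPM on day 14 against 1737 CPM on day 0. Slc4a4 and Slc5a10 were higher on day 14 than on day 4, while 13 members were lower. Among all genes tested 28.6% were higher than on day 4 and 23.3% lower.

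Brush border enzymes and scaffold proteins fell in 19 of 19 cases, with a median log2 fold change of -6.92. Pdzk1, a scaffold that binds the tails of transporters, averaged 3.08 CPM on day 14 against 2195 CPM on day 0. Vil1, which encodes the actin bundler villin, averaged 1.62 CPM on day 14 against 199 CPM on day 0. Mme, which encodes the peptidase neprilysin, was the least reduced in ratio, with 75.2 CPM on day 14 against 123 CPM on day 0, and its call was lost without replicate A, B or C of day 0, A, B or C of day 14 or A of day 2, and with library sizes alone or in the TPM fits.

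The receptors of protein uptake fell too. Lrp2, which encodes megalin, had 8.08, 6.98 and 16.3 CPM on day 14, against 516, 604 and 367 CPM on day 0 (log2 fold change -5.56 ± 0.41, edgeR adjusted p = 5.07e-09). Its partner gene Cubn averaged 1.01 ± 0.175 CPM on day 14 against 249 ± 85.6 CPM on day 0. Of 10 listed genes of megalin-dependent endocytosis 8 fell and Ocrl, a phosphoinositide phosphatase of endosomes, rose. Clcn5, the endosomal chloride-proton exchanger, had 147, 139 and 155 CPM on day 14, against 142, 148 and 131 CPM on day 0. Its libraries overlapped and it did not pass the test (log2 fold change 0.07, 95% interval -0.17 to 0.31, edgeR adjusted p = 0.599), but it was called higher with library sizes alone and in the TPM fits.

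Of 14 listed transcription factors of the segment 13 fell, and the median log2 fold change was -2.52. Hnf4a, a nuclear receptor that drives proximal tubule genes, had 1.65, 1.03 and 0.684 CPM on day 14, against 649, 627 and 568 CPM on day 0 (log2 fold change -9.08 ± 0.70, edgeR adjusted p = 9.17e-09). Ppara, the nuclear receptor for fatty acids, averaged 0.683 CPM on day 14 against 78.5 CPM on day 0. Klf15, Ppargc1a, Esrrg and Hnf4g were among the members that stood higher on day 14 than on day 4. Klf15, a metabolic regulator, averaged 33.7 CPM on day 14, 2.91 CPM on day 4 and 199 CPM on day 0.

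Metabolic genes differed in how far they fell. Genes of glucose production and amino acid breakdown fell in 22 of 22 cases, with a median log2 fold change of -9.82 and a median level of 0.108% of day 0. Pck1, which encodes phosphoenolpyruvate carboxykinase, averaged 0.349 CPM on day 14 against 4249 CPM on day 0. Miox, which breaks down inositol, averaged 0.101 CPM on day 14 against 5561 CPM on day 0. Genes of fatty acid oxidation fell in 28 of 28 cases, with a median of -2.74. Of the 28, 11 were higher on day 14 than on day 4, beside 28.6% of all genes tested. Cpt1a, which admits long-chain fatty acids to mitochondria, averaged 64.6 CPM on day 14, 25.9 CPM on day 4 and 684 CPM on day 0. The nuclear genes of the respiratory chain fell in 31 of 31 cases, with a median of -2.14, and yet 30 of them were shared genes. Cox6c, a cytochrome oxidase subunit, had 756, 743 and 734 TPM on day 14, against 2839, 2658 and 2717 TPM on day 0. Of the 31, 1 was higher on day 14 than on day 4 and 9 were lower, beside 28.6% and 23.3% of all genes tested.

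Enzymes of xenobiotic and steroid metabolism fell in 19 of 22 cases, with a median log2 fold change of -8.85. Akr1c21, a hydroxysteroid dehydrogenase, had no count on day 14 and 1582, 1759 and 1651 CPM on day 0. Ephx1, the microsomal epoxide hydrolase, rose, with 229 CPM on day 14 against 47.7 CPM on day 0, and so did Aldh1a1, a retinal dehydrogenase. Of 18 antioxidant and iron proteins 14 fell and 3 rose, with a median of -1.28. Gpx3, the secreted glutathione peroxidase that the proximal tubule supplies to plasma, had 413, 234 and 276 TPM on day 14, against 58822, 60432 and 51964 TPM on day 0. It was the highest gene of fresh tubules by TPM with mitochondrially encoded and Gm-numbered genes left out. By CPM it averaged 246 ± 73.1 CPM on day 14 against 81147 ± 6673 CPM on day 0 (log2 fold change -8.37 ± 0.46, edgeR adjusted p = 1.69e-10). Gstp1, a glutathione transferase, rose, with 612 CPM on day 14 against 269.8 CPM on day 0.

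**Figure D3:**
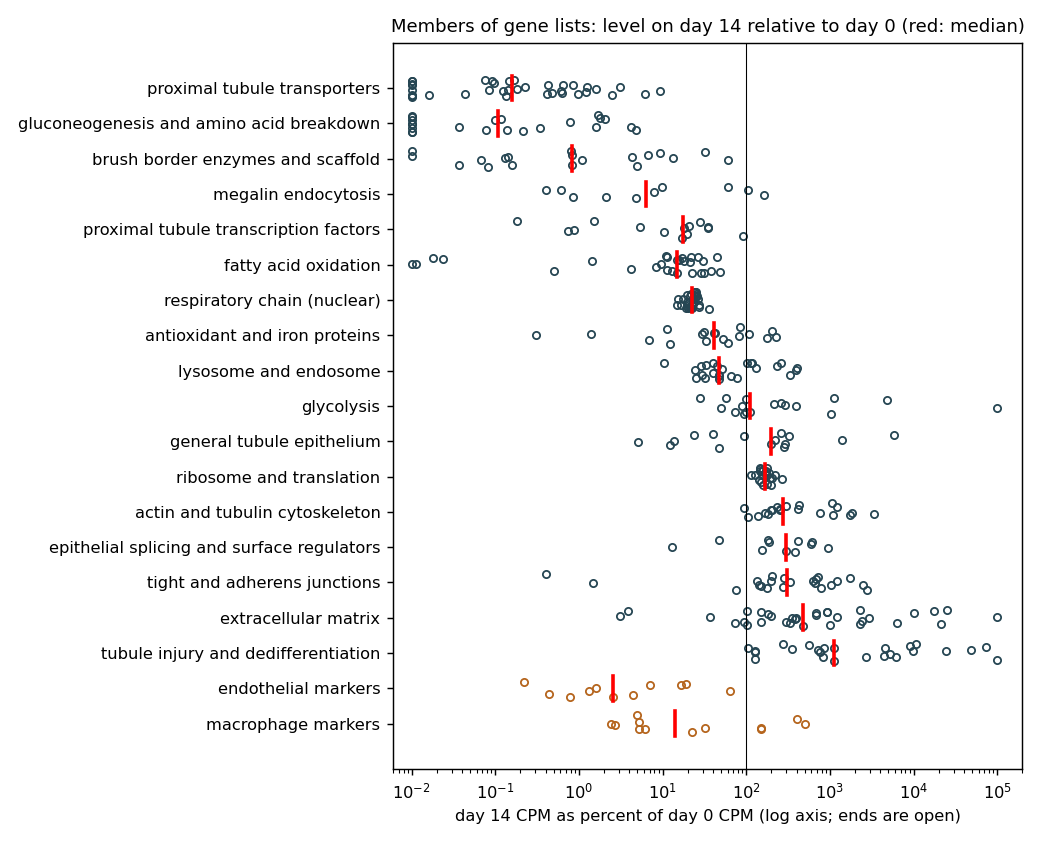
Day 14 level of each tested list member as a percentage of its day 0 mean (log scale), by list, with a red bar at the median and a black line at 100%. Markers of other cell types are in brown, and values beyond the axis are drawn at its ends. The 36 transporters and the 28 genes of fatty acid oxidation lie left of the line, and most injury genes lie right of it.

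Never regained was kept for genes with at least 10 CPM in every day 0 library whose highest culture library, on any of the 5 culture days, stayed under 25% of the lowest day 0 library. This held for 293 genes. They made up 0.151% ± 0.006 of TPM on day 14 and 3.07% ± 0.09 on day 0, and their median level on days 1, 2, 4, 7 and 14 was 10.4, 2.69, 1.25, 1.76 and 1.18% of day 0. A slow decline over day 1 leaves a gene out of the class. Counted from day 2 on there were 849 genes, which held 3.83% of TPM on day 14 and 35.6% on day 0. The count of 293 became 514 without replicate B of day 1. Tfec, at 24.99%, was just inside the limit and Mcf2l, at 25.03%, just outside. All 293 were called lower, which the rule itself nearly fixes.

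Of the 293 genes, 26 had no count in any day 14 library. Gatm, which makes the precursor of creatine, was the highest of the 293 by day 0 TPM and had 5.19, 3.06 and 4.46 CPM on day 14, against 5450.3, 5747 and 5343 CPM on day 0. Idh1, the cytosolic isocitrate dehydrogenase, averaged 48.3 ± 1.56 CPM on day 14 against 2119.8 ± 146 CPM on day 0. G6pc, the phosphatase that releases glucose, had 1 count over the day 14 libraries and 1131, 1365 and 903 CPM on day 0. The libraries of the 2 days were far apart in each of these 3 genes.

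The 293 were not all proximal. Umod, the uromodulin gene of the thick ascending limb, averaged 2.25 ± 0.364 CPM on day 14 against 2089.8 ± 283 CPM on day 0. Slc12a3, the sodium-chloride cotransporter of the distal convoluted tubule, averaged 1.4 ± 0.712 CPM on day 14 against 1232 ± 129.9 CPM on day 0. Aqp2, the water channel of the collecting duct, averaged 0.341 ± 0.042 CPM on day 14 against 363 ± 69.2 CPM on day 0. Klotho and the parathyroid hormone receptor, picked for mention after their values were seen, were in the class as well. Neither is named here as a marker of another segment. Kl had 41 CPM on day 14 against 1550.3 CPM on day 0, and Pth1r 46.3 CPM on day 14 against 771 CPM on day 0. Against day 4, 64 of the 293 were higher on day 14 and 49 lower, shares below the 28.6% and 23.3% of all genes tested.

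By fitted value, and counting genes that reached 10 CPM in each day 0 library, the largest fall was that of Klk1, tissue kallikrein, which had no count on day 14 and 2263, 2146 and 2707 CPM on day 0, at least 70989-fold lower. Slc22a8, Akr1c21, G6pc, Spp2, Cyp4a14, Ugt3a2, Rdh16f2, F13b and Cyp2j11 made up the rest of the 10 largest falls. Of the 100 genes highest by TPM on day 0, 34 were under 10% of their day 0 CPM on day 14 and 17 under 1%. Of the same 100, 38 were also among the 100 highest on day 14.

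The promoter of a lost gene, Slc3a1, is shown because it holds the consensus of the nuclear receptor that Hnf4a encodes. The sequence is RefSeq's on GRCm38.p6, 250 bases before to 50 after the transcription start. In it, chr17:85028097-85028396 on the plus strand, capitals mark the HNF4 motif CAAAGTCCA, whose first base lies 39 bases before the start. The same window also holds a match to TGANTCA, the AP-1 motif used below for new genes, which is left in lower case. Slc3a1 encodes a subunit of the cystine transporter and averaged 1.06 CPM on day 14 against 792 CPM on day 0.
Slc3a1: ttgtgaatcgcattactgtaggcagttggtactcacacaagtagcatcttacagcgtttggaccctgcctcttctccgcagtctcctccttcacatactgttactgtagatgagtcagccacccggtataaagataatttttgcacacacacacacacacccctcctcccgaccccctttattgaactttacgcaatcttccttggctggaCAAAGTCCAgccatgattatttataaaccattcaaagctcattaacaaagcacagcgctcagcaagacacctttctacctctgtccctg
Both strands were searched, and none of the motifs used here contains another. The HNF4 motif stood in 14 of 824 promoters (1.70%) of the genes never regained from day 2 on, of which 650 of 849 matched the RefSeq table, and in 67 of 15321 promoters (0.437%) of all tested genes. Among 301 promoters of the 293 genes the share was 0.332%. These matches describe letters in a window, and binding was not measured.

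A smaller group was low early in culture and stood nearer its starting level on day 14. These 218 regained genes had at least 10 CPM in each day 0 library, were under 25% of the day 0 mean on at least 1 of days 1, 2, 4 and 7, and had at least 50% of it in each day 14 library. Their median level was 23.0, 22.1, 27.8, 67.1 and 80.9% of day 0 on days 1, 2, 4, 7 and 14. The low point came on day 1 in 94 genes; 78 others reached it by day 2 and 46 by day 4. Their share of TPM was 1.22% on day 14 and 0.732% on day 0. Between those days 28 of the 218 were called higher and 83 lower, beside 37.4% and 32.1% of all genes tested. The limit of 50% on day 14 bounds how far a member can have fallen. The summed TPM was higher on day 14 while the median CPM level was below that of day 0, so the direction depends on the measure.

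Gstm1, a glutathione transferase, was among them, with 395, 367 and 392 CPM on day 14, against 485, 400.2 and 411 CPM on day 0. In between it was at 365, 174, 85.3 and 308 CPM on days 1, 2, 4 and 7. Prom1, which encodes the surface protein CD133, had 580.5, 565 and 508 CPM on day 14, against 493, 349.9 and 455 CPM on day 0. It was at 132, 86.1, 208 and 547 CPM on the same 4 days, and neither gene passed the test between days 14 and 0. Prom1 was called higher without replicate C of day 7, with library sizes alone and in the TPM fits, and Gstm1 was called lower with the libraries of the 2 days alone. Listed genes of distal segments were regained too: Cldn8, a claudin of the distal nephron, Bsnd, which encodes a chloride channel subunit, and the magnesium and calcium channel genes Trpm6 and Trpv5. Cldn8 averaged 170.5 CPM on day 14, 28.7 CPM on day 4 and 227 CPM on day 0. Bsnd averaged 64.5 CPM on day 14, 9.96 CPM on day 4 and 115 CPM on day 0. All 4 were higher on day 14 than on day 4, and none passed the test against day 0. With the libraries of the 2 days alone all 4 were called lower than on day 0, and without replicate C of day 7 Cldn8 and Bsnd were. Trpm6 was called higher in the TPM fits.

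**Figure D4:**
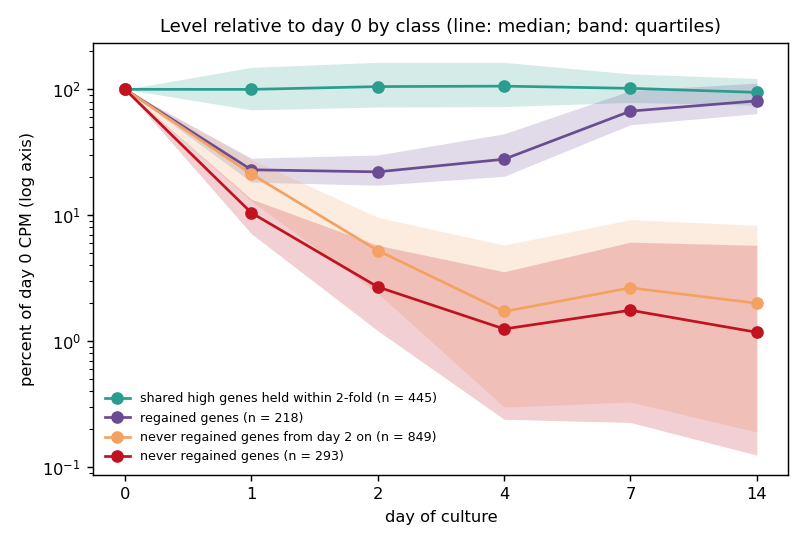
Median level as a percentage of day 0 (log scale) on each sampled day (evenly spaced) for the held, regained and never regained genes, the last counted both from day 1 and from day 2 on, with the quartiles shaded. The held genes stay near 100%, the regained genes stand at 22.1% on day 2 and 80.9% on day 14, and the 293 never regained genes at 1.18% on day 14. The class limits themselves bound the day 14 levels.

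New genes had under 1 CPM in each day 0 library and at least 10 CPM in each day 14 library, and there were 121. Masp1, whose lowest day 14 library had 10.1 CPM, was just inside the limits and Tnik, with 9.94 CPM, just outside. New genes made up 0.540% ± 0.017 of TPM on day 14 and 0.0020% ± 0.0004 on day 0. With onset as the first day on which every library reached 10 CPM, the numbers that began on days 1, 2, 4, 7 and 14 were 33, 12, 28, 10 and 38. Without replicate C of day 7, the library least like its own day, 19 began on day 7 and 29 on day 14, and Igfbp2 and Slc7a3 moved to day 7. The day with the highest mean was day 14 for 71 of the 121 and day 1 for 9. The class took 0.681, 0.436, 0.347 and 0.389% of TPM on days 1, 2, 4 and 7, so its share was larger on day 1 than on day 14.

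Havcr1, Krt20 and Fosl1 were highest early. Havcr1, which encodes kidney injury molecule 1, averaged 0.161, 1680.1, 1172, 546, 547 and 119.8 CPM on days 0, 1, 2, 4, 7 and 14. Its libraries had 99.4, 156 and 104 CPM on day 14, against 0.0473, 0.18 and 0.257 CPM on day 0 (log2 fold change 9.50 ± 1.02, edgeR adjusted p = 4.44e-07). Havcr1 thus ended far below its day 1 level and 743-fold above day 0. Krt20, a keratin of injured tubules, averaged 0.106, 1048, 475, 93.8, 97.6 and 50.8 CPM over the same days. Fosl1, a subunit of the transcription factor AP-1, had no count on day 0 and averaged 668, 316, 52, 21.1 and 21.4 CPM on days 1, 2, 4, 7 and 14.

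Others had their highest mean on day 14. Ankrd1, which encodes an ankyrin repeat protein known as a target of YAP and TEAD, had 451, 444 and 388 CPM on day 14, against 0.805, 0.432 and 0.462 CPM on day 0 (log2 fold change 9.57 ± 0.21, edgeR adjusted p = 4.61e-14). Trib3, a pseudokinase gene induced by amino acid shortage and endoplasmic reticulum stress, averaged 201 ± 22.5 CPM on day 14 against 0.428 ± 0.19 CPM on day 0. Chac1, which encodes a glutathione-degrading enzyme of the same response, averaged 80.8 ± 2.22 CPM on day 14 against 0.203 ± 0.165 CPM on day 0. All 3 had onset on day 1, and Trib3 was at 84.5, 47.1, 52.8 and 54.2 CPM on days 1, 2, 4 and 7.

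Slc7a3, which imports arginine and lysine, averaged 145 ± 16.4 CPM on day 14 against 0.106 ± 0.108 CPM on day 0. Prss22, a tryptase-like serine protease, averaged 65.5 CPM on day 14 and had 2 counts in all on day 0. Syt8, a synaptotagmin gene, had 29.9, 42.2 and 34.5 CPM on day 14 and no count in any day 0 library, at least 804-fold higher. Sema3a, a secreted guidance cue, was later still, at 0.151, 3.03 and 19.6 CPM on days 4, 7 and 14 and with no count on day 0. In TPM, the day 14 mean over the 121 genes ranged from 2.25 TPM for Eppk1 to 1019 TPM for Igfbp2.

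Promoters of 3 new genes are shown for the motifs of AP-1, TGANTCA, and of the TEAD factors, GGAATG, again from RefSeq on GRCm38.p6 and with the motifs in capitals. The Igfbp2 window, chr1:72825137-72825436 on the plus strand, belongs to 1 of 2 annotated starts and has an AP-1 motif 39 bases before it. The Syt8 window, chr7:142434600-142434899 on the plus strand, belongs to 1 of 3 starts and has an AP-1 motif 172 bases before it. The Ankrd1 window, chr19:36119795-36120094 on the minus strand, has 2 TEAD motifs, the first of them 210 bases before the start.
Igfbp2: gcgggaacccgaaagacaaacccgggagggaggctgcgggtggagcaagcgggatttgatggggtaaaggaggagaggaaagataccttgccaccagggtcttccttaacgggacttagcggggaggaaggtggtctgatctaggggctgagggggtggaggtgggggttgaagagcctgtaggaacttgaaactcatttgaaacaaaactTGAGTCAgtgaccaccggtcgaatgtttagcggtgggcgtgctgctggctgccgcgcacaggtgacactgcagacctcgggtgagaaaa
Syt8: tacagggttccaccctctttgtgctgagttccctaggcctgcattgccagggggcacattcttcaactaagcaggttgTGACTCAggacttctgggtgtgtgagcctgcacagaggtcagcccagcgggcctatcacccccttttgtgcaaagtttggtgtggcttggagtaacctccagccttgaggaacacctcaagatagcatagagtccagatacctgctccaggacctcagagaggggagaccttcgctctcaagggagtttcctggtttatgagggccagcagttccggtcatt
Ankrd1: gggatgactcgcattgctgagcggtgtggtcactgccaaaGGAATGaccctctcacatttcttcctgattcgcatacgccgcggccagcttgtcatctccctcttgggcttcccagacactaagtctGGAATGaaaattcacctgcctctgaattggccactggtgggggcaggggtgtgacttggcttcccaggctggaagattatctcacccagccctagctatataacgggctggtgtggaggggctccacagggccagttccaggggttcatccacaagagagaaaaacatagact
Of 129 promoters of new genes, from the 95 of 121 that matched, 17 held the AP-1 motif (13.2%), beside 889 of the 15321 promoters of tested genes (5.80%) and 10 of the 301 of the never regained genes (3.32%). The TEAD motif stood in 24 of the 129 (18.6%) and in 1950 of the 15321 (12.7%). It also stood in 48 of the 301 of the never regained genes (15.95%) and in 135 of the 824 counted from day 2 on (16.4%). Promoters of the listed transporters held it in 8 of 40 cases, those of regained genes in 12.9% and those of held genes in 11.6%. A TEAD share above that of tested genes was thus not particular to new genes.

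Injury genes were mostly still raised on day 14. Of 25 listed genes of tubule injury and dedifferentiation 21 rose and 0 fell, and the median log2 fold change was 3.50. Against day 4 the list went both ways, with 11 higher and 9 lower, beside 28.6% and 23.3% of all genes tested. Sox9, a transcription factor of regenerating tubules, had 127, 134 and 142 CPM on day 14, against 2.75, 2.45 and 3.7 CPM on day 0 (log2 fold change 5.51 ± 0.19, edgeR adjusted p = 1.73e-12). Clu, which encodes the secreted chaperone clusterin, averaged 1996 ± 243 CPM on day 14 against 565 ± 65.7 CPM on day 0. Gdf15, a stress-induced cytokine, averaged 786 ± 62 CPM on day 14 against 7.35 ± 0.356 CPM on day 0. Vim, which encodes vimentin, had 27.1, 13 and 22.3 CPM on day 14, against 14.7, 18 and 16.1 CPM on day 0. It did not pass the test against day 0 (log2 fold change 0.36, 95% interval -1.05 to 1.76, edgeR adjusted p = 0.645) and was lower than its 161 CPM of day 4.

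Of 12 genes listed for tubules that fail to repair, 8 rose and 2 fell (1 of the 2 being Vcam1), and the median log2 fold change was 2.33. Akap12, a kinase scaffold, averaged 556 CPM on day 14 against 5.96 CPM on day 0. Csf1, the macrophage growth factor, rose, with 162 ± 22.3 CPM on day 14 against 6.33 ± 0.404 CPM on day 0. Vcam1, an adhesion molecule often used to mark that state, had 3.29, 1.46 and 2.44 CPM on day 14, against 5.02, 5.55 and 4.52 CPM on day 0 (log2 fold change -1.06 ± 0.45, edgeR adjusted p = 0.0475), a call lost in 21 of 29 alternatives, where its adjusted p ranged up to 0.868.

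Chemokines, cytokines and innate defence genes rose in 15 of 29 cases and fell in 6. The median log2 fold change was 1.76, or 1.43 with members at 0 counts on either day at the floor of 3 counts. Compared with day 4, 7 of the 29 stood higher and 16 lower, beside 28.6% and 23.3% of all genes tested. Ccl20, which attracts lymphocytes and dendritic cells, averaged 16.9 CPM on day 14, 504 CPM on day 4 and 0.012 CPM on day 0. Cfb, the complement factor B gene, fell, with 2.7 CPM on day 14 against 740.1 CPM on day 0.

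Genes of tight and adherens junctions rose in 19 of 22 cases and fell in 2, with a median log2 fold change of 1.63. Those that fell are claudins of leaky epithelium. Cldn2, the paracellular cation channel of the proximal tubule, had 14, 11.6 and 15.3 CPM on day 14, against 1014, 926 and 839 CPM on day 0, and Cldn10 had 1.49, 0.784 and 0.261 CPM on day 14, against 224, 165 and 236 CPM on day 0. Cldn4, a claudin of the collecting duct, rose, with 443, 337 and 415 CPM on day 14, against 23.2, 9.94 and 9.8 CPM on day 0. Cldn3 rose, with 197 ± 2.63 CPM on day 14 against 8.01 ± 0.911 CPM on day 0, and Cldn7 rose, with 374 ± 18.5 CPM on day 14 against 36.4 ± 5.33 CPM on day 0. Cdh2, which encodes N-cadherin, averaged 195 ± 34.8 CPM on day 14 against 15.9 ± 1.81 CPM on day 0 and rose beside Cdh1. In TPM, which compares genes, Cldn7 stood at 603 TPM on day 14 against 32.3 TPM on day 0 and Cldn2 at 8.21 TPM on day 14 against 311 TPM on day 0, so the order of this pair turned round.

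Of 11 epithelial regulators 9 rose and 2 fell, and 1 of the falls was lost with library sizes alone, in the TPM fits and without any single library of days 0, 1, 2, 4 or 14. Esrp1, an epithelial splicing factor, rose, with 88 CPM on day 14 against 9.35 CPM on day 0. Of 14 mesenchymal and contractile genes 5 rose and 3 fell, shares below the 37.4% and 32.1% of all genes tested. Without replicate C of day 7 the count of rises was 8. Zeb1 and Zeb2, repressors of E-cadherin, were among those that fell, with 0.568 CPM on day 14 against 5.51 CPM on day 0 for Zeb1. Snai1 and Snai2, of the same kind, did not pass, and Acta2, the smooth muscle actin gene, averaged 44.4 CPM on day 14 against 36.9 CPM on day 0 and did not pass.

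**Figure D5:**
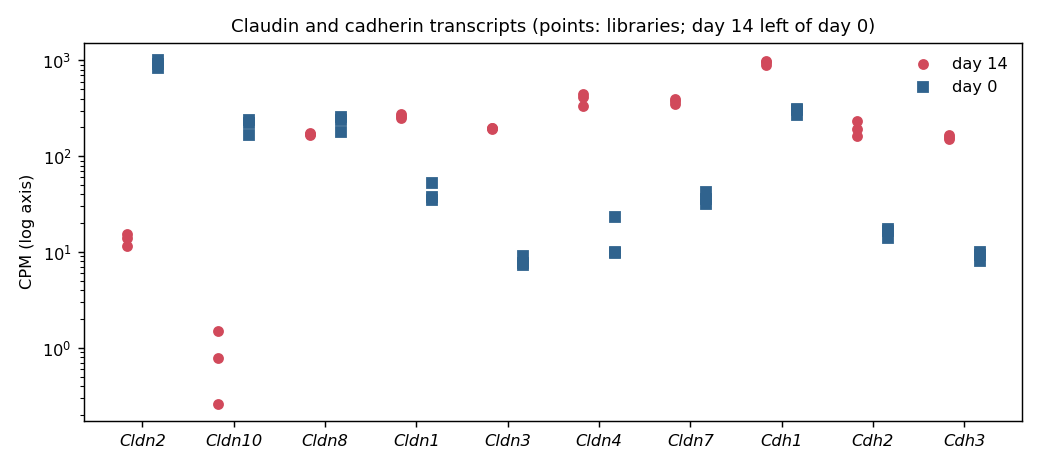
CPM (log scale) of claudin and cadherin genes in the 3 day 14 libraries (left of each pair) and the 3 day 0 libraries (right). Cldn2 averages 13.6 CPM on day 14 against 926 CPM on day 0, while Cldn3, Cldn4 and Cldn7 average 197, 398 and 374 CPM on day 14 against 8.01, 14.3 and 36.4 CPM on day 0.

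Matrix genes rose in 23 of 33 cases and fell in 4, with a median log2 fold change of 2.25, and 20 were higher on day 14 than on day 4. Thbs1, which encodes thrombospondin 1, averaged 4535 ± 399 CPM on day 14 against 71.5 ± 1.62 CPM on day 0 (log2 fold change 5.99 ± 0.20, edgeR adjusted p = 1.02e-12). Fn1, the fibronectin gene, had 499, 283 and 562 CPM on day 14, against 1.47, 1.58 and 2.26 CPM on day 0. Lamb3, a laminin chain gene, averaged 212 ± 12.1 CPM on day 14 against 1 ± 0.215 CPM on day 0. The basement membrane collagen genes Col4a1, Col4a2 and Col4a3 did not pass the test here but were called higher in the TPM fits. Col4a3 had 264, 202 and 281 CPM on day 14, against 294, 227 and 207 CPM on day 0 (log2 fold change 0.04, 95% interval -0.39 to 0.47, edgeR adjusted p = 0.875). Timp3, an inhibitor of matrix proteases, fell except in the TPM fits, with 1414 CPM on day 14, 243 CPM on day 4 and 3846 CPM on day 0. Actin and tubulin genes rose in 18 of 20 cases, with a median of 1.46, and 14 of the 20 were lower on day 14 than on day 4. Among all genes tested 28.6% were higher than on day 4 and 23.3% lower. Tpm1, a tropomyosin gene, averaged 1238 CPM on day 14 against 71.6 CPM on day 0.

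Several Wnt ligand genes rose beside Wnt7a. Of 38 tested genes of the pathway 16 rose and 13 fell, shares near the 37.4% and 32.1% of all genes, and the median log2 fold change was -0.10, which was 0.46 with library sizes alone and 0.22 to 1.23 in the TPM fits. Wnt7b had 523, 495 and 511 CPM on day 14, against 11.2, 4.07 and 9.6 CPM on day 0 (log2 fold change 5.96 ± 0.31, edgeR adjusted p = 7.15e-11). Wnt9a averaged 42.4 CPM on day 14 against 1.24 CPM on day 0, and Wnt10a averaged 14.6 CPM on day 14 against 0.377 CPM on day 0. Axin2, a feedback target of canonical Wnt signalling, had 0.342, 0.214 and 0.456 CPM on day 14, against 0.284, 0.432 and 0.359 CPM on day 0. Axin2 and Lef1, a transcription factor of that branch, did not pass the test. Sfrp1, a secreted antagonist that binds Wnt proteins, fell, with 1.67 ± 0.536 CPM on day 14 against 268 ± 37.8 CPM on day 0. Lgr4, an R-spondin receptor, fell, with 37.9 CPM on day 14 against 376 CPM on day 0.

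In the list of insulin-like growth factor genes, of which 11 of 12 were tested, 3 rose and 6 fell. Igfbp2 was the only listed binding protein called higher. Igfbp4 fell, with 7.98 ± 2.79 CPM on day 14 against 1661 ± 282 CPM on day 0. Igfbp5 fell, with 7.62 ± 2.96 CPM on day 14 against 260.7 ± 20.7 CPM on day 0. Igfbp7 fell less in ratio, with 968 ± 55.8 CPM on day 14 against 2252 ± 105 CPM on day 0. In TPM, Igfbp7 stood at 1898 TPM on day 14 against 2476 TPM on day 0 and Igfbp2 at 1019 TPM on day 14 against 0.247 TPM on day 0, so Igfbp7 stayed the higher of the pair.

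Cell cycle genes were far below their day 4 level on day 14. Of 25 mitosis genes 6 rose and 0 fell between days 14 and 0, beside 37.4% higher and 32.1% lower among all genes tested. Their median log2 fold change was 0.99, and no member averaged under 102.5% of its day 0 level. They summed to 101 to 116 TPM on day 14 and 21.1 to 32.7 TPM on day 0, so they stood above day 0. All 25 were lower on day 14 than on day 4, as were 23.3% of all genes tested. The count of 6 was 15 with library sizes alone, 17 with the libraries of the 2 days alone and 19 without replicate C of day 7. Mki67, which encodes the proliferation antigen Ki-67, had 2.02, 2.46 and 3.58 CPM on day 14, against 3.74, 1.55 and 1.8 CPM on day 0 (log2 fold change 0.20, 95% interval -1.27 to 1.68, edgeR adjusted p = 0.809). On day 4 it averaged 118 CPM. DNA replication genes rose in 7 of 24 cases and fell in 4, both shares below those of all genes tested, with a median of 0.59. Their count of rises was 15 without replicate C of day 7, 12 without replicate B of day 7 and 4 without replicate A of day 0. All 24 were lower on day 14 than on day 4.

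Cdkn1a, which encodes p21, an inhibitor of cyclin-dependent kinases, had 433, 449.8 and 459.8 CPM on day 14, against 9.99, 4.32 and 9.03 CPM on day 0 (log2 fold change 5.86 ± 0.27, edgeR adjusted p = 2.08e-11). Cdkn2b, which encodes the inhibitor p15, averaged 118 ± 4.83 CPM on day 14 against 0.952 ± 0.483 CPM on day 0. Of 20 inhibitor and p53 target genes 16 rose and 3 fell. Their median log2 fold change was 2.07, and 13 were higher on day 14 than on day 4, beside 28.6% of all genes tested. Bbc3, a p53-induced cell death gene, averaged 37.9 CPM on day 14 against 2.5 CPM on day 0.

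Genes of the ribosome and translation rose in 22 of 22 cases, with a median log2 fold change of 0.73, and 19 of them were lower on day 14 than on day 4. Against a fold of 2, 2 of the 22 passed. Of 17 glycolysis genes 8 rose and 3 fell, with a median of 0.14. Slc2a1, which encodes the glucose transporter GLUT1, rose, with 897 ± 179 CPM on day 14 against 79.5 ± 14.4 CPM on day 0. Hk2, a hexokinase gene among the new genes, averaged 123 CPM on day 14 and had 2 counts in all on day 0. Lysosome genes fell in 16 of 25 cases and rose in 6, and 17 were higher on day 14 than on day 4. Sqstm1, the autophagy receptor p62, rose, with 2031 CPM on day 14 against 779.6 CPM on day 0. NRF2 targets rose in 7 of 11 cases and fell in 2, and 9 of the 11 were lower on day 14 than on day 4. Among all genes tested 28.6% were higher than on day 4 and 23.3% lower. Slc7a11, the cystine importer, rose, with 87.1 CPM on day 14 against 0.701 CPM on day 0.

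Markers of other cells moved between the days too, and their part in the results above was not tested. The 8 thick limb markers summed to 68.0 to 85.6 TPM on day 14 and 1791 to 2206 TPM on day 0, and 6 of the 8 fell. Intercalated cell markers fell in 7 of 7 cases, with sums of 0.80 to 1.14 TPM on day 14 and 206 to 330 TPM on day 0, and Slc4a1 and Foxi1 had no count on day 14. Principal cell markers fell in 6 of 8 cases, with sums of 195 to 260.0 TPM on day 14 and 665 to 998 TPM on day 0. Gata3, a transcription factor of the collecting duct, rose, with 114, 110.1 and 123 CPM on day 14, against 38, 32.9 and 40.3 CPM on day 0. Of 5 markers of the distal convoluted tubule 3 fell, with sums of 20.7 to 30.5 TPM on day 14 and 672 to 875 TPM on day 0, and Pvalb had no count on day 14. Fresh tubules thus held RNA of every other nephron segment on these lists, and the summed level of each was lower on day 14.

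Endothelial markers fell in 11 of 11 cases, with sums of 32.1 to 34.3 TPM on day 14 and 109.7 to 123 TPM on day 0. Podocyte markers fell in 6 of 6 cases, with sums of 54.3 to 71.5 TPM on day 14 and 106 to 136 TPM on day 0. Red blood cell markers fell in 4 of 4 cases, and their sums were 0 to 0.24 TPM on day 14 and 121 to 189 TPM on day 0. Of 12 macrophage markers 7 fell and 2 rose, with sums of 51.2 to 63.5 TPM on day 14 and 28.6 to 77.4 TPM on day 0. C1qa, which defines tissue macrophages, averaged 0.186 CPM on day 14 against 3.58 CPM on day 0. The 2 that rose were Cd14 and Cd68, with log2 fold changes of 1.91 to 2.81 and 1.98 to 3.22 across the alternatives. Of 5 lymphocyte markers 1 was tested and fell, and 4 had no count on day 14. Of 5 tested urothelial markers 1 rose and 1 fell, a balance that other settings changed, with sums of 21.2 to 30.55 TPM on day 14 and 0.78 to 2.55 TPM on day 0.

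Fibroblast and pericyte markers split. The matrix genes Col1a1, Col1a2, Col3a1 and Postn rose and the other 5 of 9 fell, 3 of them in the fit on log2(TPM + 1). Their sum was 49.1 to 62.4 TPM on day 14 and 14.5 to 17.2 TPM on day 0. Col1a1, a type I collagen gene, had 58.6, 81.3 and 83.8 CPM on day 14, against 0.426, 0.468 and 1.8 CPM on day 0. Pdgfrb, a receptor of pericytes, fell except in the TPM fits, with 4.36 CPM on day 14 against 13.3 CPM on day 0, and Dcn, which encodes decorin, averaged 0.0884 CPM on day 14 against 2.91 CPM on day 0.

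Mesothelin is also a marker of mesothelium, the lining of body cavities. Of 5 tested markers of mesothelium, Msln among them, 3 rose and 2 fell, and without a filter on low counts 4 of 9 rose and 4 fell. The 9 listed summed to 444 to 501 TPM on day 14 and 44.5 to 53.1 TPM on day 0. Without Msln the other 8 summed to 22.8 to 35.2 TPM on day 14 and 44.3 to 53 TPM on day 0, so the higher sum of day 14 was that of Msln itself. Upk3b rose, with 65.9, 42.2 and 48.4 CPM on day 14, against 1.14, 0.252 and 1.59 CPM on day 0. Muc16 had no count on day 0 and averaged 0.631 CPM on day 14. Wt1 fell, with 1.39 CPM on day 14 against 7.37 CPM on day 0, and so did Gpm6a. Lrrn4 had no count on day 14, and Upk1b, Nkain4 and Bnc1 averaged under 1 CPM on both days.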

How the data were processed

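RNA from 3 libraries on each of days 0, 1, 2, 4, 7 and 14 was analysed. The deposited files give estimated counts and TPM per gene, made with RSEM 1.3.3 and STAR 2.7.8a on GRCm38 after cutadapt 2.3 and FastQC 0.11.8, per the submitters' processing notes. Neither the annotation release nor the strand setting is stated there, so reads of overlapping, antisense or near-identical genes cannot be assigned with certainty. Deposited TPM is relative within a library and was used to compare genes. Sums over lists, shares of classes and levels of some single genes are also given in TPM for both days. Those comparisons between days carry the shift of 0.77 to 0.82 on the log2 scale seen in the TPM fits.

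Estimated counts were rounded. Of 55421 genes, 18754 passed filterByExpr, and 5 reporter entries with 0 counts were left out. edgeR 4.0.16 in R 4.3.3 fitted the 6 day means with TMM factors and 12 residual degrees of freedom by quasi-likelihood, with Benjamini-Hochberg adjustment at 0.05. The fit was tested on simulated counts with a single spread and few changed genes, which cannot test the scaling between days. A ratio with 1 to 3 counts on day 0 has an exact 95% interval that covers counting error only, and a fold against 0 counts uses a floor of 3 counts over the 3 libraries. limma 3.58.1 on log2(TPM + 1) or log2(TPM + 0.1), with a minimum of 0.5 TPM or none, and DESeq2 1.42.0 were alternatives, as were other scalings, other class limits and leaving out each library.

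The members, classes and lists were chosen with earlier results of these data known. Of 677 list entries all matched, 1 by synonym, and 652 of 670 genes were tested. Genes are named by a fixed rule: set markers, the largest rises and falls, the highest members of each class and the list members with the smallest adjusted p. Other list members and the class examples were chosen after their values were seen. A symbol that occurs more than once takes its entry with most counts. Some genes that the rule covers are not reported here.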

Additional observations from a re-analysis of the deposited data

How the results depend on the processing

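Counts of genes called between days 14 and 0 moved most with the test and the scaling. Against a fold of 2, 2856 genes were higher and 3297 lower, and between days 14 and 4 the counts were 1124 and 854. In limma fits 10791 genes were higher and 2891 lower with a pseudocount of 1 (2885 lower against day 4), 10923 and 2840 with a pseudocount of 0.1, and 11966 higher without a filter (2901 lower against day 4). Of the 7007 higher genes 4568 had at least 10 CPM in each day 14 library, a limit chosen after seeing the data. Leaving out each library in turn gave 6535 to 7560 higher and 5494 to 6500 lower genes against day 0, and 4441 to 5994 higher and 3870 to 4889 lower against day 4. The cause of these shifts was not tested.

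Class sizes followed their limits. With at least 50 or 200 TPM there were 1878 or 388 shared genes, of which 999 or 177 were held. Never regained genes numbered 76 with a limit of an eighth in place of 25%, 146 in TPM and 849 over days 2, 4, 7 and 14, a choice made after seeing the data. New genes numbered 184 in TPM, 213 with at least 5 CPM and 58 with at least 20 CPM. Without 1 library they numbered 123 to 138, never regained genes 293 to 514, regained genes 209 to 229, shared genes 884 to 909 and held genes 423 to 466.

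Of 273 genes followed, 226 kept direction and call under all 29 alternatives run for genes. Some genes near 0 turned from a rise to a fall in at least 1 alternative. The lowest log2 fold change was -0.037 for Spp1, -0.039 for Clcn5, -0.069 for Col4a3 and -0.051 for Mki67. The changes from a fall to a rise given next came with library sizes alone or limma on TPM. With library sizes alone the log2 fold change was 0.26 for Ppia, 0.20 for Ubb, 0.46 for Ezr, 0.0214 for Tmem254c and 0.0186 for Gclc. In limma fits it was 0.54 for Ppia, 0.14 for Prdx1, 0.48 for Ubb, 0.64 for Gm10059, 0.77 for Malat1, 0.81 for Aldoa, 0.35 for Tmem254c, 0.0149 for Gapdh, 0.0277 or 0.0314 for Sema5a, 0.28 for Gclc, 0.71 or 0.74 for Col4a2, 0.72 or 0.73 for Ezr, 0.16 for Mme and 0.52 or 0.60 for Trpm6. The majority direction of 4 of 40 lists changed under some setting. Libraries with the same letter did not deviate together (r = -0.0451, -0.0461 and -0.0044 over genes, each against the mean of its day), so the letters were not taken as pairs. With a replicate block the counts were 7086 higher and 6034 lower, and 5376 and 4424 against day 4.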
